A study of Mus musculus with 2 samples.

Results

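The genes described here are 9 abundant genes of protein synthesis, chosen by symbol from the 32285 genes that were counted. They are the translation elongation factor genes Eef1a1, Eef2, Eef1b2, Eef1g and Eef1d, the gene Tpt1, the nucleolar gene Npm1, and the ribosome-linked genes Fau and Rack1. All 9 were found, and each had far more than the 100 unique molecular identifiers (UMIs, 1 per captured RNA molecule) over both libraries that was the minimum for a gene to be compared. They were measured by single-cell RNA sequencing (scRNA-Seq) of GL261 cells, a mouse glioma line labelled as astrocytoma and of C57BL/6 origin, that were grown either adherently or as neurospheres, which are free-floating cell aggregates.

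There was 1 library of each culture. The adherent cells grew in DMEM to which FBS (10%) and Penicillin-Streptomycin (1%) were added. For neurospheres this medium also held Epidermal Growth Factor and Fibroblast Growth Factor, each at 20 ng/ml, and B-27 at 1:50, and they were collected on day 12. By the labels, both cultures were dissociated with trypsin and frozen in medium with DMSO, and only the neurospheres were also broken up by trituration. The study's methods differ here, naming trypsin for the adherent cells and only trituration for the neurospheres. Growth form, added factors, dissociation and library cannot be told apart in this design. No replicate error exists, so no test was run, and every interval given is a 95% interval that covers counting error only.

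During elongation of a protein chain, eEF1A carries each aminoacyl-tRNA to the ribosome as a complex with GTP, and the eEF1B subunits exchange the spent GDP for new GTP. eEF2 then moves the ribosome along the mRNA. The mRNAs of elongation factors and ribosomal proteins belong to the class that starts with a C and a run of pyrimidines, the 5′ terminal oligopyrimidine (TOP) motif, through which the mTORC1 kinase controls their translation. Levels of mRNA, as counted here, do not report on that control.

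After cells with few UMIs or few genes were left out, 5051 of 5764 adherent and 4276 of 4951 neurosphere cells were kept, with 67755289 and 81654257 UMIs and a median of 12076 and 16682 UMIs per cell. The 13 mitochondrial genes held 2.10% of the UMIs of adherent and 3.93% of those of neurosphere cells, and 78 genes of cytosolic ribosomal proteins held 29.3% and 16.3%. Of 15 immediate early and stress genes that dissociation can induce, 13 had at least 100 UMIs, of which 9 were higher in neurospheres by over 1.5-fold and 3 lower by as much (48.3% and 13.4% of all genes were), and their summed level was 858 and 1737 CPM (UMIs per 1000000 UMIs of all genes). Of 8 astrocyte markers, S100b, Slc1a3, Gja1, Aldoc and Aldh1l1 had over 100 UMIs, while Gfap had 30 and 27 UMIs and Aqp4 none in either library. The 9 immune markers summed to 9.30 and 4.14 CPM, with 3 and 4 of them at 0, C1qa in both. The 8 endothelial, fibroblast and red blood cell markers summed to 4.80 and 309 CPM, with Cdh5 at 0 in both. In adherent cells the sum came mainly from Hba-a1 (2.15 CPM, and 0.061 CPM in neurospheres) and Col1a1 (1.71 CPM), and in neurospheres from Col1a1 (262 CPM) and Dcn (3606 UMIs, against 1 in adherent cells). The part of these differences in the results on the 9 genes was not tested. The libraries shared 12 cell barcodes, and no doublets were removed.

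On the total of all genes, the 9 genes together held nearly the same share of RNA in both cultures, but the balance among them differed. They took 2.34% (2.33 to 2.34) of the UMIs of adherent cells and 2.36% (2.36 to 2.36) of those of neurosphere cells. Without mitochondrial and ribosomal genes in the total, the share was 3.42% in adherent and 2.97% in neurosphere cells. On the total of all genes Eef1a1 was 1.84-fold higher in neurosphere cells, while Fau was 2.32-fold, Eef1d 1.86-fold, Rack1 1.65-fold, and Eef1b2 and Eef1g each 1.55-fold lower. Npm1 was slightly lower, and Eef2 and Tpt1 were slightly higher on the total of all genes but not with the other scaling given below.

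**Figure D1:**
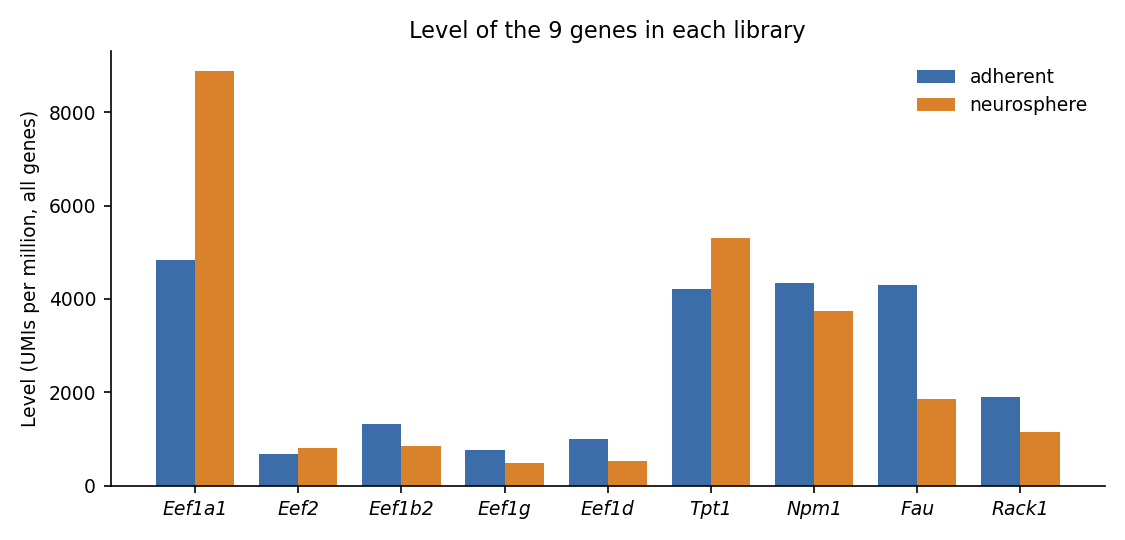
Level of the 9 genes in CPM (linear axis) in the adherent and the neurosphere library, 1 library each, without error bars because counting intervals are narrower than the lines. Eef1a1 stands at 4834 CPM when adherent and 8875 CPM as neurospheres, and Fau at 4296 and 1851 CPM.

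By size, 1 of the 9 genes was higher in neurospheres by over 1.5-fold and 5 were lower by as much. Of the 13442 genes with at least 100 UMIs, 48.3% were over 1.5-fold higher and 13.4% over 1.5-fold lower. At 2-fold the counts were 0 genes higher and 1 lower (Fau), against 29.1% and 8.5% of all genes. The median log2 fold change (neurosphere over adherent) was −0.63 for the 9 genes and 0.55 for all genes. Of the 226 genes at 500 CPM or more in both libraries, 11.5% were over 1.5-fold higher and 36.7% lower, and 5.31% and 16.8% at 2-fold, with a median of −0.34. That set holds many ribosomal protein genes and all of the 9 genes but Eef1g. Without ribosomal proteins and the 9 genes it has 143 genes, of which 17.5% were over 1.5-fold higher and 16.1% lower.

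These values depend on the total. Scaling the libraries by the trimmed mean of M-values (TMM) moved the median of all genes from 0.55 to 0.12, with 28.8% of all genes then over 1.5-fold higher and 22.6% lower, and moved each of the 9 genes down by the same amount. On that scale no member was over 1.5-fold higher, Eef1a1 remained higher at 0.45, Eef2 and Tpt1 turned to −0.17 and −0.095, and the other 6 were lower as before, now all by over 1.5-fold, since Npm1 moved to −0.64. Leaving mitochondrial and ribosomal genes out of the total gave values in between. The order of the 9 genes and the ratios between them do not depend on the total, so the ratios are given for each group of genes.

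**Figure D2:**
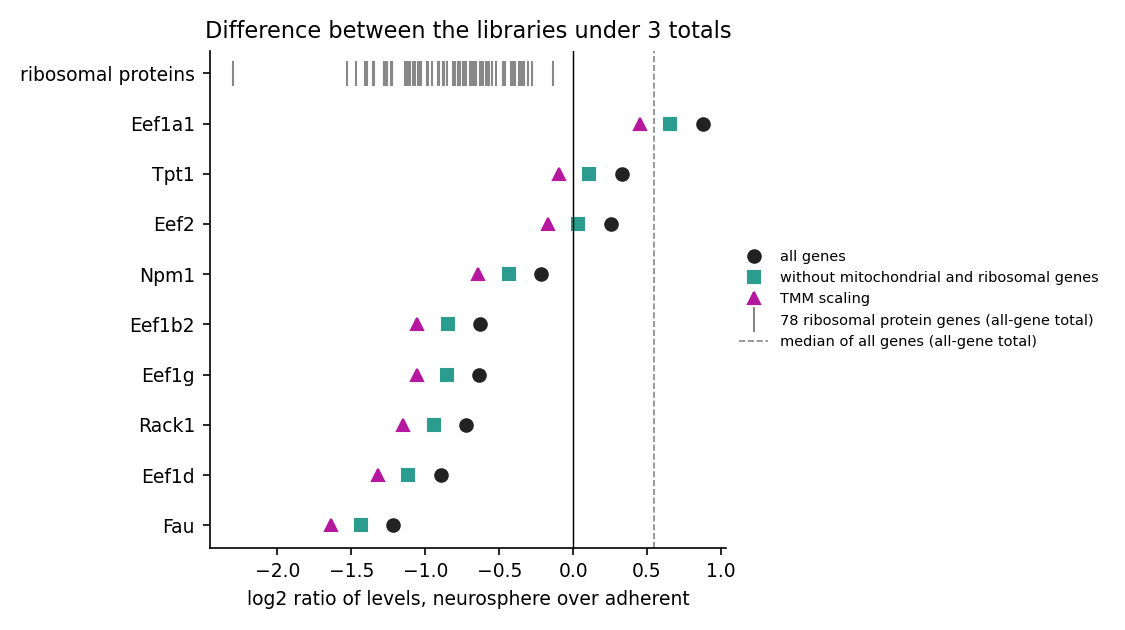
log2 ratio of each gene's level, neurosphere over adherent, on the total of all genes (circles), without mitochondrial and ribosomal genes (squares) and with TMM scaling (triangles), with the 78 ribosomal protein genes as ticks and the median of all genes as a dashed line. Eef1a1 stays right of 0 under all 3, Eef2 and Tpt1 cross 0 with TMM scaling, and all 78 ribosomal protein ticks lie left of 0.

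Eef1a1 encodes eEF1A1, the GTPase that delivers aminoacyl-tRNAs. Its level was 4834 CPM (4818 to 4851) when adherent and 8875 CPM (8855 to 8895) as neurospheres, a log2 fold change of 0.88 (0.87 to 0.88). The median cell held 59 and 148 UMIs of it, and no kept cell of either library was without one. On the total without mitochondrial and ribosomal genes the difference was 0.66. Its paralog Eef1a2, the form of muscle and mature neurons, had 9 UMIs in each library, so the gene was essentially the single source of counted eEF1A mRNA. Eef1a1 lies on the minus strand of chromosome 9 (GRCm38, 78478449 to 78489151). Processed pseudogenes of elongation factor and ribosomal protein genes can share reads with their parent, and how such reads were assigned is not given in the sources used here.

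The exchange factor subunits moved against Eef1a1. Eef1b2 (eEF1B alpha) and Eef1d (eEF1B delta) carry the exchange activity, and Eef1g (eEF1B gamma) is the structural subunit. Eef1b2 was at 1330 CPM (1322 to 1339) when adherent and 861 CPM (854 to 867) as neurospheres, a log2 fold change of −0.63 (−0.64 to −0.61). Eef1g was at 756 CPM (749 to 762) and 487 CPM (482 to 492), also −0.63 (−0.65 to −0.61). Both were thus lower to the same degree, and the number of Eef1b2 UMIs per Eef1g UMI was 1.76 (1.74 to 1.78) in adherent and 1.77 (1.75 to 1.79) in neurosphere cells. Eef1d was at 991 CPM (983 to 998) and 533 CPM (528 to 538), −0.89 (−0.91 to −0.88). It was lower by more than its partners, with 1.34 Eef1b2 UMIs per Eef1d UMI in adherent and 1.62 in neurosphere cells. Eef1d has the most annotated transcripts of the 9 genes, 18, and shares part of its locus on chromosome 15 with Naprt on the same strand, which had only 16 and 32 UMIs. Eef1b2 overlaps Ndufs1 on the opposite strand.

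The ratio of Eef1a1 to its exchange factors also differed between the cultures. UMIs are counted once per molecule at the 3′ end and were not divided by length, so the change of a ratio between libraries is compared here, and not its size within a library. There were 1.57 (1.56 to 1.58) Eef1a1 UMIs per UMI of the 3 subunits together in adherent and 4.72 (4.69 to 4.75) in neurosphere cells, a 3.004-fold difference. Against single subunits the ratio went from 3.63 to 10.3 for Eef1b2, from 6.40 to 18.2 for Eef1g and from 4.88 to 16.7 for Eef1d. Across 8 other ways of choosing or weighting the cells, tried after the values were seen, the ratio to the 3 subunits lay between 1.56 and 1.60 in adherent and between 4.72 and 4.99 in neurosphere cells.

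Eef2, the translocase that advances the ribosome, did not share the difference of Eef1a1 or of the exchange factors. It was at 680 CPM (674 to 686) when adherent and 812 CPM (805 to 818) as neurospheres, a log2 fold change of 0.25 (0.24 to 0.27) that shrank to 0.036 without mitochondrial and ribosomal genes in the total and was −0.17 with TMM scaling. There were 7.11 Eef1a1 UMIs per Eef2 UMI in adherent and 10.9 in neurosphere cells. Eef2k, the kinase that inhibits eEF2 by phosphorylation, was at 10.1 and 4.38 CPM, −1.20 (−1.39 to −1.01), the lowest value among the other elongation and termination factors.

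Tpt1 encodes TCTP, a small abundant protein that binds eEF1A and whose mRNA is itself of the TOP class. It was at 4219 CPM (4204 to 4235) when adherent and 5301 CPM (5285 to 5316) as neurospheres, a log2 fold change of 0.33 (0.32 to 0.34), 0.11 without mitochondrial and ribosomal genes in the total and −0.095 with TMM scaling. Eef1a1 UMIs per Tpt1 UMI went from 1.15 to 1.67, so Tpt1 stayed behind Eef1a1 but ahead of the remaining 7 genes.

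Npm1 encodes nucleophosmin, a nucleolar chaperone of ribosome assembly. It was at 4343 CPM (4328 to 4359) when adherent and 3738 CPM (3725 to 3752) as neurospheres, a log2 fold change of −0.22 (−0.22 to −0.21). With cells thinned to 5000 UMIs each it was −0.37 and with each cell weighted equally −0.35, and in neurosphere cells its level moved with depth, as described further on. Its relative Npm3 had the same difference at a far lower level, 189 and 162 CPM, −0.22 (−0.25 to −0.18), and Npm2, the oocyte form, had 18 and 31 UMIs.

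Fau encodes a ubiquitin-like protein fused to the small-subunit ribosomal protein eS30, and Rack1 a scaffold protein of the small subunit near the mRNA exit. Fau was at 4296 CPM (4280 to 4311) when adherent and 1851 CPM (1841 to 1860) as neurospheres, a log2 fold change of −1.21 (−1.22 to −1.21), the lowest of the 9 genes. Rack1 was at 1903 CPM (1893 to 1914) and 1153 CPM (1146 to 1160), −0.72 (−0.74 to −0.71). Symbols of both genes differ from those of other ribosomal proteins, so a filter on symbols that begin with Rps or Rpl leaves them in. Fau UMIs per Rack1 UMI went from 2.26 (2.24 to 2.27) to 1.60 (1.59 to 1.62). Rack1 overlaps Trim41 on the opposite strand.

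The ribosomal proteins themselves give the nearest comparison. All 78 listed genes were lower in neurosphere cells, 59 over 1.5-fold and 29 over 2-fold (13.4% and 8.5% of all genes were). Their median was −0.83, and Rps3a1 came nearest to 0 at −0.14. Eef1a1, Eef2 and Tpt1 lay above all 78 and Npm1 above 77. Rack1 lay above 48, Eef1b2 and Eef1g above 55, Eef1d above 35 and Fau above 15, so these 5 were spread among the ribosomal proteins. Per 1000 UMIs of ribosomal proteins there were 16.5 of Eef1a1 in adherent and 54.4 in neurosphere cells. The same quantity was 14.4 and 32.5 for Tpt1, 14.8 and 22.9 for Npm1, and 2.33 and 4.98 for Eef2. It was 4.55 and 5.28 for Eef1b2, 2.58 and 2.99 for Eef1g, 6.51 and 7.07 for Rack1, 3.39 and 3.27 for Eef1d, and 14.7 and 11.4 for Fau. The ratio to ribosomal proteins thus differed 3.29-fold for Eef1a1, over 2-fold for Tpt1 and Eef2, and by less than 1.3-fold for the exchange factors, Rack1 and Fau. Reading it needs the caution that ribosomal protein genes also have many pseudogenes.

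Start-site sequences of the genes are shown because the TOP motif at the 5′ end is what links elongation factor and ribosomal protein mRNAs. RefSeq promoter sequences (GRCm38.p6) were found for 6 of the 9 genes: Eef1a1, Eef2, Eef1b2, Tpt1, Fau and Rack1. Each window below has 30 bases, 8 before the annotated start and 22 from it, on the coding strand, and capitals mark the longest run of a C followed by at least 4 C or T bases that begins within 15 bases of the start. The windows are chr9:78481703-78481732 (minus strand) for Eef1a1, and, all on the plus strand, chr10:81176623-81176652 for Eef2, chr1:63176823-63176852 for Eef1b2, chr14:75845248-75845277 for Tpt1, chr19:6057939-6057968 for Fau and chr11:48800352-48800381 for Rack1.
Eef1a1: ccgCCCTCTTCCCgagggtgggggagaacg
Eef2: ggccgggcgttgacgtcagcggtCTCTTCC
Eef1b2: gcagttccgccggaagtagccgaggccttg
Tpt1: ctgacgacagttccgggggagccgcggacg
Fau: ccccaCTTCTTCCTCTTTCTTgactccatc
Rack1: cgCTCTTTCTTTTTCTCCacagggtcgtgg
A run was present in 4 of the 6 windows, and was 10 bases long in Eef1a1 and 16 in both Fau and Rack1. In Eef2 the window ends within the run, so its 7 bases are a minimum. By the same search 39.5% of 27025 promoters and 35 of 57 ribosomal protein promoters (61.4%) had one. Genes with a run in the window include the one that was highest (Eef1a1) and the one that was lowest (Fau) in neurosphere cells relative to adherent cells. Annotated starts can lie some bases from the cap site, so no match says only that these letters are absent from this window.

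The other factors of protein synthesis did not share one direction. Among all genes, 48.3% were over 1.5-fold higher and 13.4% lower, with a median of 0.55 (0.12 with TMM scaling). The elongation, initiation and mitochondrial lists given here each had a lower median and a smaller share over 1.5-fold higher. Of 16 other elongation and termination factors with at least 100 UMIs, 3 were over 1.5-fold higher and 2 lower, with a median of 0.16 that was −0.26 with TMM scaling and −0.058 without mitochondrial and ribosomal genes in the total. Among them the release-factor paralog Gspt2 (0.91) and the ribosome-rescue factor Hbs1l (0.89) were highest, and Eif5a, whose product relieves stalled elongation, was low with Eef2k at −0.69. The 36 initiation factors had a median of 0.18 (−0.25 with TMM scaling, −0.040 without mitochondrial and ribosomal genes), with 4 over 1.5-fold higher, led by Eif4g3 (1.76) and Eif1b (1.35), and 4 lower, led by Eif2s2 (−1.06) and Eif3c (−0.74). The 10 mitochondrial translation factors had a median of 0.39 (−0.036 with TMM scaling), with 3 over 1.5-fold higher and 0 lower, from Gfm1 (0.89) and Gfm2 (0.76) to Mrrf (−0.21) and Tufm (−0.50).

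Genes that make or attend ribosomes were likewise mixed, with medians below that of all genes (0.55, or 0.12 with TMM scaling). Here too the shares past 1.5-fold were smaller than the 48.3% higher and 13.4% lower among all genes. The 32 ribosome biogenesis genes had a median of 0.13 (−0.29 with TMM scaling, −0.085 without mitochondrial and ribosomal genes), 4 over 1.5-fold higher and 1 lower. Ubtf, a factor of rDNA transcription, was at 1.63 and Rrs1 at 1.34, while Nhp2, a snoRNP protein, was at −0.93 and nucleolin (Ncl) at −0.55. The 13 nascent chain and ribosome-associated factors had a median of 0.31 (−0.11 with TMM scaling), 2 over 1.5-fold higher (Ddx3x at 1.25, Ltn1 at 1.06) and 1 lower (Edf1 at −0.93), and Serbp1 was at −0.30.

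The last lists of this kind are the snoRNA hosts and the mTORC1 pathway. The snoRNA host genes, spliced RNAs many of which are also of the TOP class, had a median of −0.59 over 12 entries. Of these, 0 were over 1.5-fold higher and 6 lower, against 48.3% and 13.4% of all genes. They ranged from Snhg9 (−1.37) and Snhg1 (−1.30) to Snhg4 (0.12, or −0.43 for a second, far lower entry of that symbol) and Snhg3 (0.37). The 17 mTORC1 and translation regulators had a median of 0.62 (0.19 with TMM scaling, 0.40 without mitochondrial and ribosomal genes), near the 0.55 of all genes. In this list 9 were over 1.5-fold higher and 1 lower, against 48.3% and 13.4% of all genes. Tsc1, an inhibitor of mTORC1, was at 1.70 and Eif4ebp2 at 1.20. Eif4ebp1, which codes for a 4E-BP, a translation repressor that mTORC1 switches off, was the exception at 658 CPM when adherent and 197 CPM as neurospheres, −1.74 (−1.76 to −1.71). Larp1, which binds TOP mRNAs, was at −0.23.

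Per cell, the difference in Eef1a1 was a shift of most of the neurosphere cells and not of a small group. To compare cells at one depth, each was thinned to 5000 UMIs, which left out 210 adherent and 11 neurosphere cells with fewer. At that depth the median cell held 24 Eef1a1 UMIs in adherent (5th to 95th percentile 12 to 39) and 43 in neurosphere cells (20 to 75). On this total of all genes, 89.7% of the neurosphere cells lay above the adherent median and 59.2% above the adherent 95th percentile. The ratio to the exchange factors parted the cells further. Its log2 value per cell, with 0.5 UMI added to each side, had a median of 0.63 in adherent and 2.27 in neurosphere cells, and 80.1% of neurosphere cells lay above the adherent 95th percentile. Eef1a1 UMIs outnumbered those of the 3 subunits in 83.9% of the adherent cells and 99.7% of the neurosphere cells (89.2% and 99.9% without thinning).

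**Figure D3:**
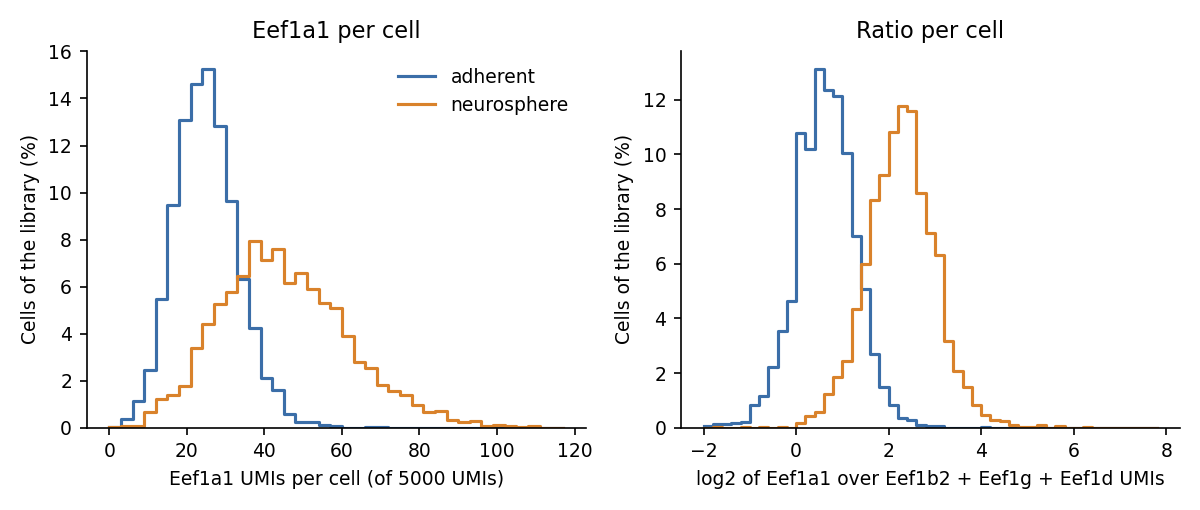
Share of the cells of each library (percent) by Eef1a1 UMIs per cell thinned to 5000 UMIs (left) and by the log2 ratio of Eef1a1 to Eef1b2, Eef1g and Eef1d UMIs (right). The neurosphere curve is shifted to the right as a whole, with medians of 43 against 24 UMIs and of 2.27 against 0.63.

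Fau showed the clearest shift downward, with a median of 21 UMIs in adherent and 8 in neurosphere cells at equal depth. Below the adherent median lay 99.2% of neurosphere cells, and 76.5% lay below its 5th percentile. For Eef1d the medians were 5 and 2 UMIs with 86.9% of neurosphere cells under the adherent median, for Eef1b2 7 and 4 with 84.5%, for Eef1g 4 and 2 with 78.7%, and for Rack1 9 and 5 with 84.6%. Npm1 (21 and 15 UMIs) had 69.7% below it, and 26.6% above it. Tpt1 (20 and 25 UMIs) had 71.5% above the adherent median and Eef2 (3 and 4 UMIs) 54.1%, on the total of all genes, the scale on which both are higher. Every gene was found in at least 97.7% of the kept cells of each library without thinning, so shares of cells with a UMI say little here. After thinning, the lowest shares were those of Eef1g, 96.9% when adherent and 87.3% as neurospheres, and of Eef1d, 98.5% and 88.6%.

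The spread between cells was also compared. The coefficient of variation beyond counting noise at 5000 UMIs per cell was higher in the neurosphere library for all 9 genes, and was so at 3000 UMIs as well. This was common, as 74.8% of 1177 genes with a mean of at least 0.5 UMI in both libraries were also higher. It was most unequal for Npm1, 26.8% in adherent and 43.5% in neurosphere cells, and for Rack1, 22.6% and 38.2%. For Eef1a1 it was 26.2% and 34.3%, for Eef1d 26.0% and 34.8%, and for Fau 20.2% and 28.8%. Tpt1 was the most alike, 29.2% and 32.0%. The remaining genes were at 27.9% and 34.5% (Eef2), 19.1% and 26.0% (Eef1b2), and 22.1% and 29.2% (Eef1g).

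The level of Npm1 varied widely with which neurosphere cells were looked at. In the quartile of neurosphere cells with the fewest UMIs it was at 2189 CPM and in the quartile with the most at 4414 CPM, a 2.02-fold range, against 3740 and 4486 CPM in adherent cells. Along the share of UMIs from 50 G2/M genes it went from 2374 CPM in the lowest quartile of neurosphere cells to 4326 CPM in the third and 4102 CPM in the highest, while adherent cells stayed between 4098 and 4458 CPM. The log2 difference between the libraries was thus −0.79 in the lowest and −0.073 in the highest quartile, or −1.21 and −0.50 with TMM scaling. The quartiles were taken within each library, and the median G2/M share of the lowest was 0.152% in adherent and 0.0757% in neurosphere cells. Along the mitochondrial share it went the other way, from 4521 to 2604 CPM in neurosphere and from 4605 to 3754 CPM in adherent cells. Depth, mitochondrial share and G2/M share were not separated from each other, and their parts in the Npm1 level were not tested.

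**Figure D4:**
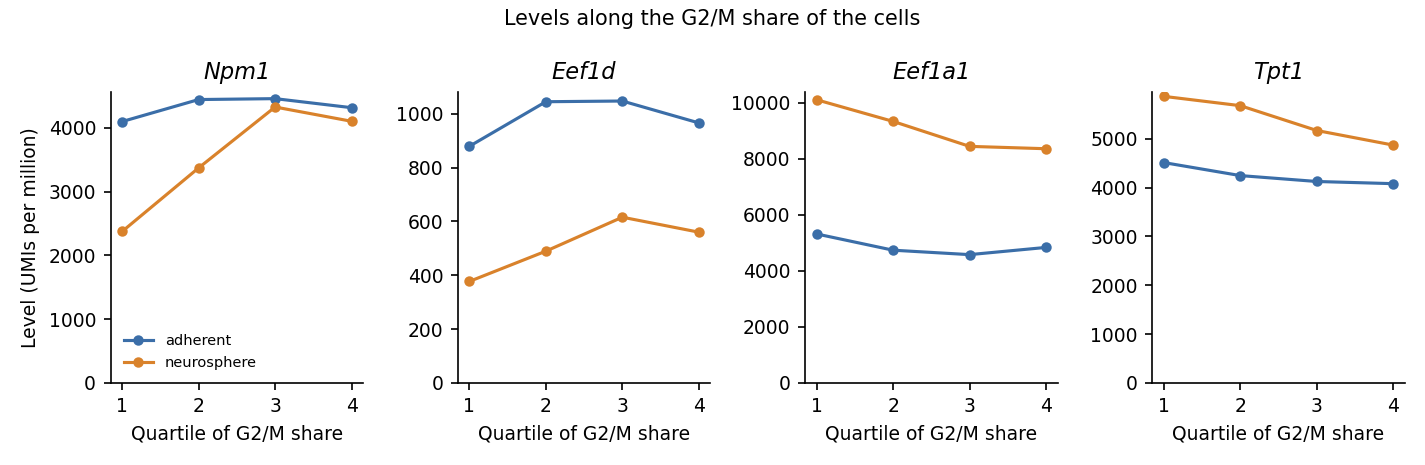
Level in CPM of Npm1, Eef1d, Eef1a1 and Tpt1 in quartiles of the cells of each library ordered by the share of UMIs from 50 G2/M genes, with axes from 0. Npm1 in neurosphere cells climbs from 2374 to 4326 CPM by the third quartile, near the adherent line on the total of all genes, whereas the lines of Eef1a1 and Eef1d stay apart.

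Eef1d had a weaker form of the Npm1 pattern, 377 CPM in the lowest and 560 CPM in the highest quartile of neurosphere cells by G2/M share. Eef1a1 was higher in cells low in G2/M genes, 10108 against 8359 CPM in neurosphere and 5316 against 4835 CPM in adherent cells. In neurosphere cells all 9 genes were higher in each successive quartile by ribosomal protein share, from 1.27-fold over the range for Tpt1 to 1.84-fold for Npm1 and 2.04-fold for Rack1. From the lowest to the highest quartile by that share, Rack1 went from 703 to 1434 CPM in neurosphere and from 1588 to 2091 CPM in adherent cells, and Eef1a1 from 6541 to 10519.5 CPM and from 4179.6 to 5532 CPM. Even so, the highest adherent quartile of Eef1a1 by any of the 5 measures, which were depth and the mitochondrial, ribosomal protein, G2/M and S-phase shares, stayed below the lowest neurosphere quartile on the total of all genes, though not with TMM scaling (6409 and 5646). The ratio of Eef1a1 to the exchange factors was between 1.43 and 1.76 in all adherent quartiles and between 4.15 and 5.90 in all neurosphere quartiles.

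Correlations across cells thinned to 5000 UMIs (4841 adherent and 4265 neurosphere cells, each set sharing 1 library) are given as a description of the log-transformed UMIs. With the summed ribosomal proteins, Pearson's r was 0.33 in adherent and 0.55 in neurosphere cells for Eef1a1, 0.33 and 0.53 for Npm1, 0.35 and 0.49 for Rack1, 0.36 and 0.45 for Fau, and 0.16 and 0.33 for Tpt1. Npm1 with the G2/M genes gave 0.081 and 0.43. Among the 9 genes themselves the values were low, the highest being Npm1 with Rack1 at 0.30 and 0.40, and the lowest Eef1d with Tpt1 at −0.036 and −0.067. Eef1a1 and Eef1d, partners in one complex, were at −0.024 in adherent and 0.023 in neurosphere cells. Counting noise at this depth lowers r, most for genes with few UMIs such as Eef1d (medians of 5 and 2 UMIs). A low r therefore does not show that 2 genes vary apart.

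For each gene the 3 genes most like it were found among 1177 expressed genes by the lower of the r values of the 2 libraries. Most were ribosomal protein genes. For Eef1a1 they included Rpl3 (0.33 and 0.42) and Rps20 (0.31 and 0.48). For Npm1 they were Rack1, Rps27a and Rpl8, for Rack1 Rpl8, Npm1 and Rpl18, and for Tpt1 Rps24, Rpl15 and Rps12. Eef1g was most like Rpl8, Rack1 and Rps10, and the genes most like Eef1b2 included Rpl7 and Eef1a1. Those most like Fau included Rplp0 and Rps2. Eef1d was most like the mitochondrial chaperonin gene Hspe1 (0.22 and 0.25), Rpl8 and Npm1, and Eef2 had Rps12 (0.17 and 0.26), Eef1a1 and Gas5 as its nearest. Such a ranking favours abundant genes, whose r is lowered less by counting noise.

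Clusters of cells, 10 in each library, show how far the levels are shared by subpopulations. They were formed without mitochondrial and ribosomal genes but with the 9 genes left in, and are given by number with no cell type. Eef1a1 lay between 2191 and 5953 CPM in the adherent clusters and between 7184 and 10364 CPM in the neurosphere clusters, without overlap on the total of all genes, but with TMM scaling, added after the values were seen, the ranges overlapped (2538 to 6896 and 6201 to 8946). The ratio to the exchange factors lay between 1.44 and 1.91 and between 3.49 and 6.20, without overlap and free of the choice of total. On the total of all genes, of all 13442 genes compared, 10.9% were without overlap on the higher side and 1.99% on the lower side. The other 8 genes overlapped, Eef1b2, Eef1g, Eef1d, Fau and Rack1 only through adherent cluster 9. That cluster had 48 cells, a median of 3366.5 UMIs, 12.5% mitochondrial UMIs and 8.38% ribosomal protein UMIs, and was led by Lars2 and Pcdh9. Without it, a choice made after the values were seen, Eef1b2, Eef1g, Eef1d, Fau and Rack1 were lower in every neurosphere cluster than in any adherent one (4.79% of all genes were so), and Eef2, Tpt1 and Npm1 still overlapped on the total of all genes. Also without cluster 9 and on the total of all genes, 25.6% of all genes lay wholly on the higher side. With TMM scaling and without cluster 9 Npm1 was without overlap as well, with 9.44% of all genes on the lower and 11.7% on the higher side. With TMM scaling and cluster 9 included, Eef1g alone of the 9 was without overlap, with 4.02% of all genes on the lower and 5.51% on the higher side.

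**Figure D5:**
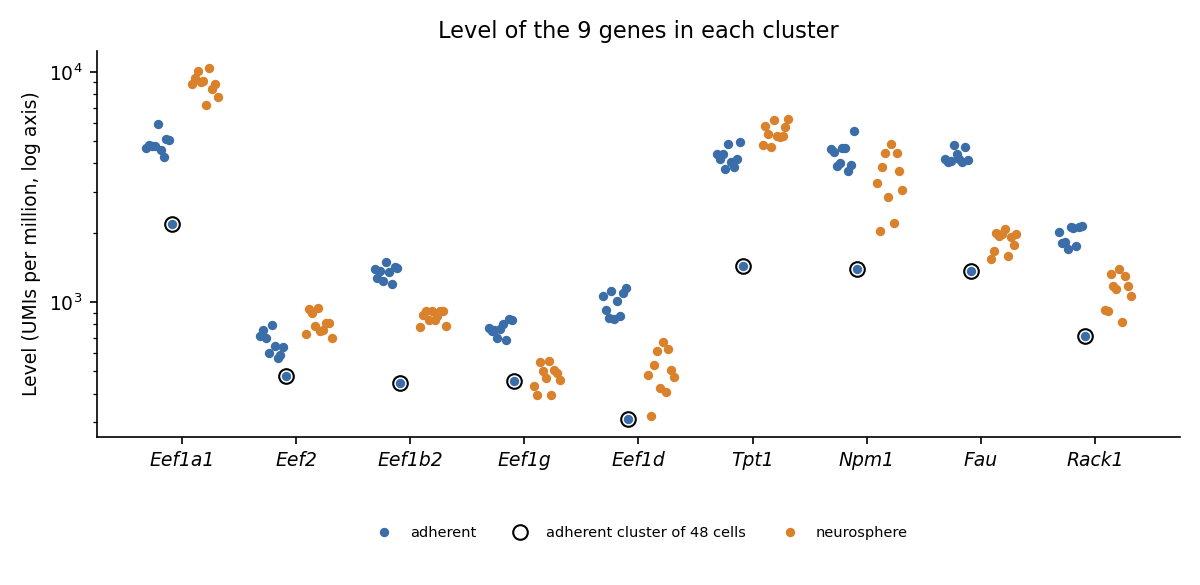
Level in CPM (log axis) of the 9 genes in each of the 10 adherent and 10 neurosphere clusters, each point 1 cluster, with the adherent cluster of 48 cells circled. Eef1a1 points of the neurosphere clusters (7184 to 10364 CPM) lie above all adherent ones on this total, though not with TMM scaling, and Fau points lie below all but the circled one.

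Within neurospheres the clusters spread most in Npm1 and Eef1d. Cluster 5 (435 cells, led by Wnt7b, Prss56, Igf1 and Fosl1) had the highest Npm1 at 4884 CPM, the highest Eef1d at 668 CPM and the highest Rack1 at 1394 CPM, together with the lowest Eef1a1 at 7184 CPM and the lowest ratio. It was also the deepest, with a median of 26422 UMIs per cell. Cluster 1 (589 cells, led by Comp, Pdzd2 and Ism1), the shallowest with a median of 9540.0 UMIs, had the lowest Npm1 at 2046 CPM and the lowest Eef1d at 320.3 CPM. Cluster 6 (394 cells, led by Enpp2, Dusp15 and Mbp) had the highest Eef1a1 at 10364 CPM, the highest ratio and the lowest Rack1 at 819 CPM. With clusters formed at a resolution of 0.8 in place of 1.0 the extremes of Npm1, Eef1d, Rack1 and the ratio lay in clusters with the same first leading gene, but the highest Eef1a1 (10251 CPM) was in a cluster led by 6030498E09Rik and Crabp1, and the lowest (6580.5 CPM) in one led by Nppb. Among the adherent clusters other than cluster 9 no member spread more than 1.49-fold, against up to 2.39-fold in neurosphere clusters.

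Barcodes that the filter removed had a similar ratio of Eef1a1 to the exchange factors, but not the same balance among all 9 genes. The 713 adherent and 675 neurosphere barcodes had 35.1% and 43.3% mitochondrial UMIs. Of their other UMIs the 9 genes held 1.81% and 2.01%, below the 2.39% and 2.46% of kept cells. They had 1.502 and 5.02 Eef1a1 UMIs per exchange factor UMI, close to the values of the kept cells, and Npm1 was the gene whose level differed most from that of kept cells, 2542 against 4436 CPM without mitochondrial genes in adherent and 2251 against 3891 CPM in neurosphere barcodes.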

How the data were processed

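Single-cell 3′ v3 libraries (10x Genomics) of 1 adherent and 1 neurosphere GL261 culture were analysed. For each, the authors deposited the raw UMI count of every gene in every cell, not normalized, for 5764 and 4951 called cells. The submitters' processing notes name Cell Ranger 7.0.1 and mm10. The setting for intron reads is not given in the sources used here.

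With the limits that the study states, cells under 1000 UMIs, or under 1250 (adherent) or 2250 (neurosphere) genes, were left out after removal of 13 mitochondrial and 101 Rps or Rpl genes. The study names both orders of these steps. With the filter run before the removal 5073 and 4300 cells remain, the numbers that the study gives, and that order was run as an alternative. Levels are UMIs of kept cells per 1000000 UMIs of all genes (CPM). Intervals are exact (binomial or conditional binomial). No doublet caller was run. Calls are by size, over 1.5-fold. Clusters used Seurat 5.3.0 (R 4.3.3, resolution 1.0) and TMM factors edgeR 4.0.16. Cells were thinned and summed in Python 3.11.15. The scripts were tested on simulated data.

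The 9 genes and all lists were chosen with earlier results of these data known. Genes named beside the 9 are the 2 highest and 2 lowest of each of the 14 lists, the 3 most alike by correlation, and paralogs, while genes that lead clusters, overlap a member's locus or are markers at or near 0 were named after their values were seen. Other cell filters, totals, weights, depths and count minimums were tried. A few genes that this rule selects are not reported here.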

Additional observations from a re-analysis of the deposited data

How the results depend on the processing

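The median log2 fold change of the 9 genes (−0.63) stayed below 0 under all alternatives. It was −0.66 without the cells over the 95th percentile of UMIs, −0.67 with cells weighted equally, −0.69 with cells thinned to 5000 UMIs, −0.60 without mitochondrial genes in the total, −0.85 without mitochondrial and ribosomal genes, and −1.05 with TMM scaling, where 0 of the 9 genes were over 1.5-fold higher. Each gene kept its direction under all 12 alternatives except Eef2 (−0.17) and Tpt1 (−0.095) with TMM scaling. The share of UMIs of the 9 genes (2.34% adherent, 2.36% neurosphere) was 2.32% and 2.34% in all called cells, 2.35% and 2.34% without the deepest cells, 2.36% in neurosphere cells with the adherent limit on genes per cell or under 10% mitochondrial UMIs, 2.34% in adherent cells with the neurosphere limit, 2.39% and 2.46% without mitochondrial genes, 3.42% and 2.97% without mitochondrial and ribosomal genes, 2.32% and 2.30% with equal weights, and 2.34% and 2.31% when thinned. The order of the cultures thus turned without the deepest cells, with equal weights, when thinned and without mitochondrial and ribosomal genes, and no direction is read from it. Of 13442 genes, 6498 (48.3%) were over 1.5-fold higher and 1803 (13.4%) lower, against 3869 (28.8%) and 3033 (22.6%) with TMM scaling. Without mitochondrial and ribosomal genes in the total the counts were 5119 (38.1%) and 2348 (17.5%). At a minimum of 10 UMIs they were 8586 (47.3%) and 3216 (17.7%) of 18171 genes. At 1 UMI they were 11456 (48.2%) and 5135 (21.6%) of 23763 genes. List medians that turned with TMM scaling were other elongation factors (−0.26), mitochondrial translation factors (−0.036), initiation factors (−0.25), nascent chain factors (−0.11), ribosome biogenesis (−0.29) and G2/M genes (−0.20, from 0.22). Without mitochondrial and ribosomal genes those of other elongation factors (−0.058), initiation factors (−0.040) and ribosome biogenesis (−0.085) turned, and at 1 UMI that of the astrocyte markers (−0.42, from 0.79). The log2 ratio of the lowest neurosphere to the highest adherent level of Eef1a1 turned with TMM scaling, from 0.27 to −0.15 over clusters, with or without the shallow adherent cluster, and from 0.24 to −0.18 over quartiles of cells. The share was not computed with TMM scaling or with 1 CPM added. The S-phase genes had a median of 0.75.

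No paired analysis was possible because each culture had 1 library and the labels give no replicate numbers. No library was left out, as each is the only one of its culture.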
